A study of Mus musculus with 8 samples.

Results

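The genes described here are 9 components and targets of the Wnt and beta-catenin pathway, taken by symbol from a table of 52081 genes with values and an annotation match; all 9 were found. They are Ctnnb1, which encodes beta-catenin; Gsk3b, a kinase that marks beta-catenin for destruction; Axin2, a scaffold of the destruction complex that is also a target gene; Tcf7l1, Tcf7 and Lef1, DNA-binding partners of beta-catenin; and Sp5, Cdx1 and Ccnd1, genes that respond to the pathway. When no Wnt ligand is bound, a complex of Axin, Apc, casein kinase 1 and Gsk3 phosphorylates beta-catenin, and the protein is degraded. A Wnt ligand bound to a Frizzled receptor and its Lrp co-receptor stops that complex, and beta-catenin enters the nucleus, where it binds TCF and LEF factors on target genes. In mouse embryonic stem cells Tcf7l1 is known mainly as a repressor of pluripotency genes, and inhibitors of Gsk3 are used to keep the cells in the naive state.

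RNA was sequenced from mouse embryonic stem cells (mESCs), pluripotent cells of the early embryo grown in culture, in a series on how pluripotency is maintained and on the non-coding transcript linc1393. There were 2 libraries, numbered 1 and 2 in the titles, in each of 4 groups: sh, sd and dd, from cells treated with sh-linc1393, sd-linc1393 and dd-linc1393, and control, from wild-type untreated cells. What sd and dd mean is not spelled out, no group had a mock treatment, and the level of linc1393 itself was not analysed here because no row could be assigned to it. Separate cultures are not stated for the libraries of a group, so p-values below measure only how far these libraries spread, and that spread may be technical.

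The 2 replicate numbers stood far apart across the transcriptome. Total reads, recovered from the values, ran between 3658368 in control replicate 2 and 20387065 in dd replicate 2. Of 14561 genes with a mean of at least 1 FPKM (fragments per kilobase of exon, scaled to a library total), 8920 (61.3%) differed between replicate 2 and replicate 1 by limma at an adjusted p under 0.05, 46.6% higher and 14.6% lower. The higher calls were 76.1% of all calls on the deposited scale, 48.0% with quantile normalization and 55.9% with median ratio scaling, and the median log2 difference of all genes was 0.73, 0.02 and 0.15 on those scales. The stem cell markers Nanog (215 to 335 FPKM), Pou5f1 (14.7 to 251) and Sox2 (19.7 to 371) had reads in every library, but Pou5f1 and Sox2 varied widely between libraries. Summed FPKM of 8 stem cell markers was 6862 to 9968 in replicate 2 against 1320 to 1744 in replicate 1. The highest marker alone had 5866 to 8584 FPKM in replicate 2, and the marker medians were 134 to 274 against 173 to 231. Of the 8 markers, 3 were called higher and 1 lower in replicate 2. Summed FPKM of the 8 primitive endoderm markers was 2.31 to 13.6 in replicate 2 against 25.6 to 39.2 in replicate 1. Of these 8, 7 were lower in replicate 2 and 6 were called lower by limma, beside 14.6% of all genes tested. Summed FPKM was 20.97 to 31.5 in replicate 2 against 8.22 to 12.2 in replicate 1 over 7 trophoblast markers, 5.13 to 19.9 against 1.97 to 4.43 over 7 markers of primitive streak and mesoderm, 3.23 to 8.58 against 1.71 to 2.76 over 6 neuroectoderm markers, and 2.495 to 9.42 against 2.06 to 4.92 over 9 markers of fibroblast feeders. Among the defining markers, Col1a1 had 0 reads in control replicate 1 and Cdx2 had 0 reads in all 4 replicate 1 libraries. In replicate 2 the sums of the streak, neuroectoderm, feeder and primitive endoderm markers were highest in control, then sh, sd and dd. The level of the olfactory receptor genes, given in the next paragraph, had the same order there. The sums of the trophoblast and stem cell markers did not keep that order. The part of a shared low-level signal in these sums was not tested. In bulk RNA, fewer cells of a type and less RNA per cell cannot be told apart, and the part of these markers in the values below was not tested.

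Because many of the pathway's targets were near the detection limit, 2 limits accompany the low values. The first is the FPKM that 3 reads would give for a gene in a library. The second is the level of 1135 olfactory receptor genes, which stem cells are not known to use. Their 95th percentile was 0.533 FPKM in sh, 0.449 in sd, 0.0866 in dd and 0.877 in control replicate 2, against 0.0512 in sh, 0.0256 in sd, 0.0259 in dd and 0.0261 in control replicate 1. In replicate 2 a gene therefore had to stand higher to pass the level of these genes than in replicate 1.

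Ctnnb1 (ENSMUSG00000006932; GRCm38 chromosome 9, 120929216 to 120960507, plus strand) was among the most abundant of the 9 transcripts in both replicate numbers. In replicate 2 it stood at 59.0 FPKM in sh, 55.2 in sd and 60.5 in dd cells, against 26.7 in control cells. In replicate 1 it stood at 10.9 FPKM in sh, 21.4 in sd and 22.9 in dd cells, against 14.7 in control cells. All 3 treated libraries of replicate 2 thus lay more than 2-fold above their control, whereas in replicate 1 the sd and dd libraries lay above and the sh library below. The read ratio to the control library of the same number was 2.21 in sh (exact 95% interval 2.01 to 2.43), 2.07 in sd (1.88 to 2.27) and 2.27 in dd (2.07 to 2.49) for replicate 2. It was 0.739 in sh (0.660 to 0.830), 1.45 in sd (1.32 to 1.60) and 1.56 in dd (1.41 to 1.72) for replicate 1. These intervals cover counting error between 2 libraries and say nothing of the spread between cultures.

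Across both numbers Ctnnb1 averaged 41.7 ± 26.6 FPKM in dd cells and 20.7 ± 8.47 in control cells (SD, n = 2 each), a log2 difference of 0.88 (SE 1.01; limma adjusted p = 1). The difference was 0.76 for sd and 0.36 for sh (SE 1.01 each, limma adjusted p = 1), with group means of 38.3 ± 23.9 and 34.9 ± 34.0 FPKM. The SE of a group difference, here and below, is from a fit without the replicate number and so includes the gap between the numbers. With that number as a block the SE for Ctnnb1 was 0.41, and dd against control had a limma adjusted p of 0.553. With 1 library left out, the difference ran between 0.20 (without dd replicate 2) and 1.56 (without dd replicate 1) for dd, and between 0.10 (without sd replicate 2) and 1.43 (without sd replicate 1) for sd. The groups overlapped in each of these comparisons. The gene Ulk4, on the other strand, covers 14.6% of the exon bases of Ctnnb1, and the counting's use of strand is not given; Ulk4 itself had at most 1.35 FPKM.

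The destruction complex kinase Gsk3b (ENSMUSG00000022812; chromosome 16, 38089001 to 38246084, plus strand) had the widest gap between replicate numbers of the 7 tested genes in the set. It stood at 2.49 FPKM in sh, 1.93 in sd and 2.04 in dd cells of replicate 2, against 2.42 in the control of that number. In replicate 1 the levels were 13.6 FPKM in sh, 14.5 in sd and 11.2 in dd, against 23.0 in control cells. All 3 treated libraries of replicate 1 were therefore below their control, and the 4 libraries of replicate 2 lay close together. For replicate 1 the read ratio to control was 0.589 in sh (exact 95% interval 0.550 to 0.632), 0.627 in sd (0.589 to 0.669) and 0.486 in dd (0.454 to 0.520), while the 3 intervals of replicate 2 contained 1. The log2 differences from control over both numbers were -0.35 for sh, -0.43 for sd and -0.58 for dd (SE 1.37 each; limma adjusted p = 1 each).

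Axin2 (ENSMUSG00000000142; chromosome 11, 108920349 to 108950783, plus strand) encodes a scaffold that brings Gsk3 and beta-catenin together, and its transcription is a standard readout of the pathway. In replicate 2 it had 1.07 FPKM in sh, 0.910 in sd and 0.472 in dd, against 1.04 in control, from 82, 77, 53 and 21 reads. In replicate 1 it had 1.90 FPKM in sh, 1.92 in sd and 1.94 in dd, against 2.86 in control, from 144, 215, 205 and 101 reads. The treated libraries of replicate 1 were nearly alike and all below control, and in replicate 2 only the dd library was clearly lower. The read ratio to control in dd cells was 0.453 for replicate 2 (exact 95% interval 0.269 to 0.790) and 0.680 for replicate 1 (0.533 to 0.871). Axin2 was below the control of its number in 5 of 6 treated libraries, a count whose share over all genes was not computed. However, its log2 differences of -0.20 for sh, -0.25 for sd and -0.43 for dd (SE 0.65 each) had a limma adjusted p of 1 each. Every value exceeded the FPKM of 3 reads, at most 0.149, and at most 2.996% of the olfactory receptor genes reached it, in control replicate 2.

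Sp5 (ENSMUSG00000075304; chromosome 2, 70474923 to 70477729, plus strand), a zinc-finger factor and direct target of beta-catenin with TCF, was close to the limit in most libraries and did not pass the filter on mean FPKM. It had 0.511 FPKM in sh, 1.43 in sd and 0.164 in dd, against 2.99 in control, in replicate 2, from 15, 46, 7 and 23 reads. In replicate 1 it had 0 reads in sh and in sd, where 3 reads would give 0.104 and 0.0702 FPKM, 0.273 FPKM (11 reads) in dd and 0.0742 FPKM (1 read) in control. The highest value was thus in the control library of replicate 2 and the treated libraries of that number were all lower, with read ratios of 0.171 in sh (exact 95% interval 0.0829 to 0.342), 0.476 in sd (0.283 to 0.823) and 0.0546 in dd (0.0198 to 0.131). In that control library the olfactory receptor genes also had their highest level, and 0.0881% of them reached the value of Sp5. The sh library of replicate 2 had 6.17% of these genes at or above Sp5.

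The sequences upstream of Sp5 and Axin2 are shown because both genes are widely used as direct readouts of TCF binding and their windows differ in the letters searched for. They are the 250 bases before the RefSeq transcript start (GRCm38.p6, plus strand, 5′ to 3′), at chr2:70474673-70474922 for Sp5 and chr11:108920099-108920348 for Axin2. Capitals mark CTTTGA, a form of the core of the TCF and LEF motif. Other forms were not searched, and the Sp5 window also holds CTTTGT, which is not marked.
Sp5: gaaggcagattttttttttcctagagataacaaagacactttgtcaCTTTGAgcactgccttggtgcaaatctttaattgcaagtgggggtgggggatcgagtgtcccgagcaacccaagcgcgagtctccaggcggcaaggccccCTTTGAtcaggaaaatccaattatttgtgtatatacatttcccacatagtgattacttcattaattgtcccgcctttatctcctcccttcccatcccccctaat
Axin2: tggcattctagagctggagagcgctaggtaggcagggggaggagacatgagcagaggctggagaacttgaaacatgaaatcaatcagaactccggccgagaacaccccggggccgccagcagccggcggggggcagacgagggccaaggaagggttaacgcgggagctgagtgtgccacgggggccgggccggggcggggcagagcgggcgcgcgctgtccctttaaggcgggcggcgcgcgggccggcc
The Sp5 window held CTTTGA on the forward strand at 204 and at 104 bases before the start, and the Axin2 window held it on neither strand. Windows were at hand for 7 of the 9 genes, and of the others only Gsk3b (1 match on the reverse strand, 77 bases before the start) and 1 of the 4 Lef1 windows (2 matches on the reverse strand) held the 6 letters. Among all 32851 RefSeq windows of 250 bases, 13.8% held at least 1 match on either strand and 1.37% held 2 or more, so a single match is common by its length alone. No match says only that these letters are not in the window.

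The homeobox gene Cdx1 (ENSMUSG00000024619), which patterns the posterior embryo and responds to Wnt signals, showed the lowest values in dd cells within both replicate numbers. Replicate 2 had 5.15 FPKM in sh, 4.43 in sd and 2.75 in dd, against 8.59 in control. Replicate 1 had 1.33 FPKM in sh, 1.46 in sd and 0.328 in dd, against 1.25 in control. The treated libraries of replicate 2 were all lower than their control, and in replicate 1 only the dd library was lower, while the read ratio intervals of sh and sd contained 1. The read ratio of dd to control was 0.320 for replicate 2 (98 against 55 reads, exact 95% interval 0.228 to 0.453) and 0.263 for replicate 1 (11 against 14 reads, 0.108 to 0.624). Over both numbers Cdx1 averaged 1.54 ± 1.71 FPKM in dd cells and 4.92 ± 5.19 in control cells (SD, n = 2 each), a log2 difference of -1.06 (SE 0.98; limma adjusted p = 1) that was -1.36 within replicate 2 and -0.76 within replicate 1. It was -0.01 without control replicate 2 and -2.10 without control replicate 1, -0.31 without dd replicate 1 and -1.81 without dd replicate 2. At these settings 15.1% of all genes tested were likewise below control in both numbers in dd cells. The differences were -0.29 for sh and -0.35 for sd (SE 0.98 each; limma adjusted p = 1 each), and dd minus sh was -0.76 and dd minus sd -0.71 on the same scale, with an SE of 0.98 and a limma adjusted p of 1 each. Of the olfactory receptor genes, at most 1.32% reached the level of Cdx1 in any library.

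Ccnd1 (ENSMUSG00000070348; chromosome 7, 144929931 to 144939925, minus strand) encodes cyclin D1, which drives cells out of G1 and is a target of the pathway in several tissues. It had 2.08 FPKM in sh, 1.11 in sd and 0.510 in dd, against 2.61 in control, in replicate 2, and 0.495 FPKM in sh, 1.74 in sd and 1.04 in dd, against 0.794 in control, in replicate 1. The order of the groups differed between the numbers: sd was highest in replicate 1 and below control in replicate 2. Read ratios of sd to control were 0.423 for replicate 2 (exact 95% interval 0.290 to 0.624) and 2.19 for replicate 1 (1.42 to 3.52), 2 intervals on opposite sides of 1. The log2 differences over both numbers were -0.25 for sh, -0.08 for sd and -0.54 for dd (SE 0.65 each; limma adjusted p = 1 each). LTO1, on the other strand, covers 23.4% of the exon bases of Ccnd1 and had 0.771 to 1.90 FPKM in replicate 2 and 0.325 to 0.530 in replicate 1, close enough to Ccnd1 that reads of the 2 genes could mix.

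**Figure D1:**
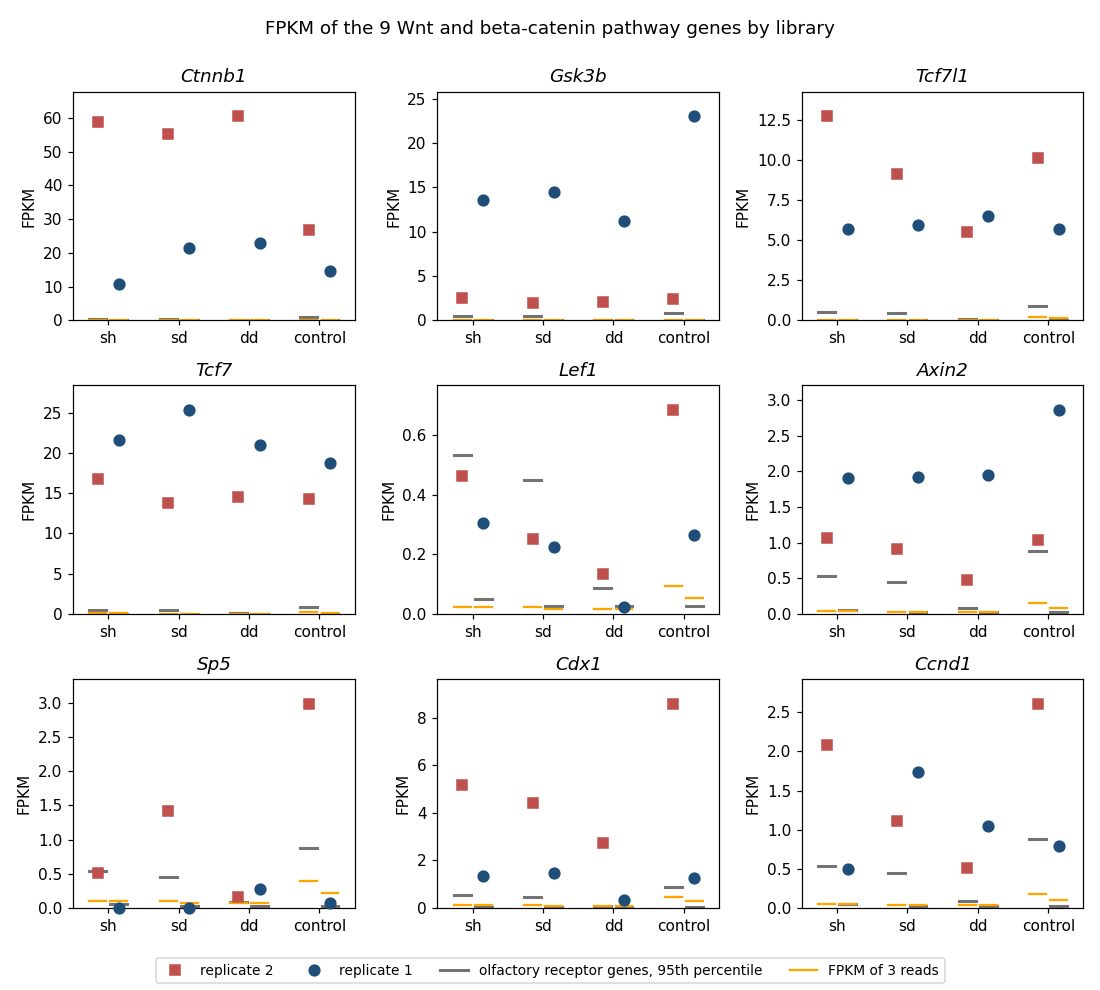
FPKM of the 9 genes in each library (y axis, linear, from 0), by group (x axis), with squares for replicate 2 and circles for replicate 1; grey bars mark the 95th percentile of the olfactory receptor genes and orange bars the FPKM of 3 reads. Ctnnb1 and Cdx1 have all squares above all circles, Gsk3b, Tcf7 and Axin2 have all squares below all circles, and Lef1 and Sp5 lie near the grey bars in several libraries.

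Among the DNA-binding partners, Tcf7 (ENSMUSG00000000782; chromosome 11, 52252371 to 52283014, minus strand), the factor best known as an activator with beta-catenin, had the steadiest level across the treatments. Replicate 2 had 16.8 FPKM in sh, 13.8 in sd and 14.6 in dd, against 14.2 in control, and replicate 1 had 21.6 FPKM in sh, 25.3 in sd and 21.02 in dd, against 18.7 in control. All treated libraries but sd replicate 2 were above their control, with the highest read ratio, 1.35, in sd replicate 1 (exact 95% interval 1.20 to 1.54). Its log2 differences from control were 0.21 for sh, 0.19 for sd and 0.10 for dd (SE 0.59 each; limma adjusted p = 1 each).

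Tcf7l1 (ENSMUSG00000055799; chromosome 6, 72626378 to 72789254, minus strand), the repressor among these factors, behaved differently in the 2 numbers. In replicate 1 it stood at 5.69 FPKM in sh, 5.95 in sd and 6.52 in dd, against 5.72 in control, and all 3 read ratio intervals contained 1. In replicate 2 it stood at 12.7 FPKM in sh, 9.14 in sd and 5.53 in dd, against 10.1 in control. There the sh library was above control (read ratio 1.26, exact 95% interval 1.05 to 1.52) and the dd library below it (0.547, 0.452 to 0.665). The log2 differences over both numbers were 0.15 for sh, -0.04 for sd and -0.30 for dd (SE 0.61 each; limma adjusted p = 1 each).

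Lef1 (ENSMUSG00000027985; chromosome 3, 131110471 to 131224356, plus strand), both a factor and a target gene, was the lowest of the 9 on average, with a mean of 0.294 FPKM, and did not pass the filter. It had 0.464 FPKM in sh, 0.252 in sd and 0.134 in dd, against 0.684 in control, in replicate 2, from 57, 34, 24 and 22 reads. In replicate 1 it had 0.306 FPKM in sh, 0.224 in sd and 0.0238 in dd, against 0.266 in control, from 37, 40, 4 and 15 reads. Both dd libraries and both sd libraries were below both control libraries, with dd the lowest in each number. The read ratio of dd to control was 0.196 for replicate 2 (exact 95% interval 0.105 to 0.366) and 0.0893 for replicate 1 (0.0216 to 0.280). As a background, among 26633 genes with a mean of 0.1 to 1 FPKM, a range set after the values were seen, 5% had both dd libraries below both control libraries and 1.99% had both sd libraries there. Low genes were in general lower in dd cells: with no filter the median log2 difference of dd from control was -0.19 and 22.6% of genes were positive. Of the olfactory receptor genes, 28.2% reached the level of Lef1 in sd replicate 2, 10.4% in control replicate 2 and 8.99% in sh replicate 2, against 1.76% in dd replicate 2 and 1.59% to 5.46% in replicate 1. The values of Lef1 in replicate 2 therefore lay, except in dd, within the upper range of genes that stem cells are not known to use. The antisense gene Gm43352 covers 13.7% of its exon bases and had at most 0.446 FPKM.

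**Figure D2:**
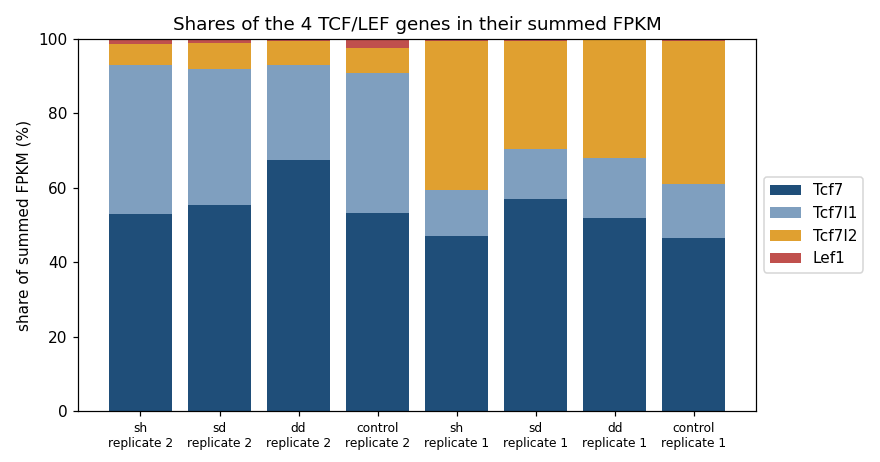
Share (y axis, %) of Tcf7, Tcf7l1, Tcf7l2 and Lef1 in the summed FPKM of these 4 genes, by library (x axis). Tcf7 takes 46.6% to 67.3% in the 8 libraries, and Tcf7l2 takes 5.60% to 7.20% in replicate 2 against 29.2% to 39.8% in replicate 1.

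In the TCF and LEF family the shares of Tcf7l1 and Tcf7l2 did not overlap between the replicate numbers. Those of Tcf7 did, at 52.9% to 67.3% in replicate 2 and 46.6% to 57.0% in replicate 1. Within replicate 2 the Tcf7 share was 67.3% in dd against 53.1% in control. Tcf7 was the most abundant of the 4 family genes in every library. Tcf7l1 took 40.1% of their summed FPKM in sh, 36.5% in sd and 25.6% in dd, against 37.8% in control, in replicate 2, and 12.4%, 13.4%, 16.1% and 14.3% in the same groups of replicate 1. Tcf7l2, the family member known for its role in intestinal epithelium, had 1.401 to 1.80 FPKM in replicate 2 against 12.9 to 18.2 in replicate 1 (log2 -2.56, limma adjusted p = 3.83e-05). It was lower in all 4 replicate 2 libraries.

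None of the 7 members tested passed the threshold in any of the 6 pairwise comparisons of groups (limma adjusted p under 0.05), and neither did any other gene, so the background was 0% of 14561 genes. Taken without adjustment, p was under 0.05 for 0 members against control, while 32 genes in all reached that for sh, 50 for sd and 83 for dd. With the replicate number as a block it was under 0.05 for 1 member, Cdx1 in dd (limma adjusted p = 0.553), beside 1310 genes in all. The standard errors of the members' differences were 0.59 to 1.37 on the log2 scale, with 2 libraries a group. They come from the fit without the replicate number, so the gap between the numbers enters them. With that number as a block they ran from 0.33 for Tcf7 to 0.55 for Ccnd1. The smallest limma adjusted p of a member against control was then 0.553. Within the numbers, the counts of treated libraries below the control of the same number were 5 of 6 for Gsk3b, Axin2, Lef1 and Sp5 (for Sp5, 2 of the 5 are 0 reads against 1 read), 4 of 6 for Cdx1 and Ccnd1, 3 of 6 for Tcf7l1 and 1 of 6 for Ctnnb1 and Tcf7. No member was on the same side in all 6. Over all genes tested, 3.66% were below in all 6 and 15% above in all 6. The share of genes below in 5 of 6 was not computed, so the members' counts of 5 have no background here. Lef1 and Sp5 did not pass the filter and are outside these shares and those that follow. For both libraries of a group, the share of genes below the control of the same number was 10.6% in sh, 12.7% in sd and 15.1% in dd, and the share above it 35.2%, 37.5% and 31%. Both libraries were below both control libraries for 2.13%, 2.69% and 4.72% of genes and above both for 8.4%, 11.1% and 11.2%. Of the members, only Lef1, in sd and in dd, was apart from both control libraries. The 3 comparisons share the same 2 control libraries, so these counts are not independent of each other.

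**Figure D3:**
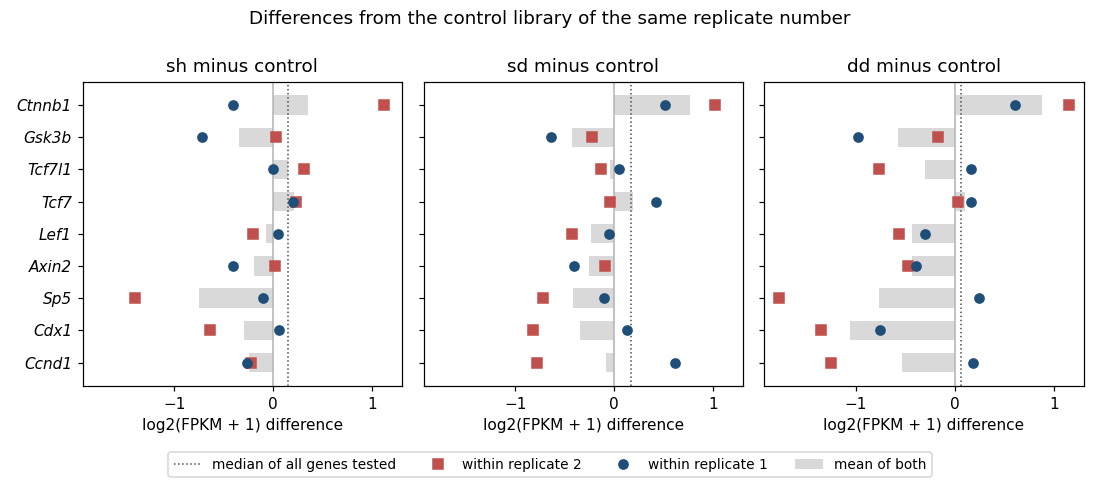
Difference of each gene from the control library of the same replicate number (x axis, log2(FPKM + 1)) for sh, sd and dd cells, with squares for replicate 2, circles for replicate 1, grey bars for their mean and a dotted line for the median of all genes tested. Ctnnb1 has the largest positive means, 0.36, 0.76 and 0.88, and Cdx1 the lowest mean in dd cells, -1.06.

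Between replicate numbers, by contrast, 3 of the 7 tested genes passed the threshold. Ctnnb1 averaged 50.3 ± 15.9 FPKM in replicate 2 and 17.5 ± 5.64 in replicate 1 (SD, n = 4 each; log2 1.46, SE 0.29, limma adjusted p = 0.0022). Cdx1 was also higher, with 5.23 ± 2.46 FPKM in replicate 2 and 1.09 ± 0.517 in replicate 1 (log2 1.53, SE 0.29, limma adjusted p = 0.0017). Gsk3b fell to 2.22 ± 0.278 FPKM in replicate 2, against 15.6 ± 5.17 in replicate 1 (log2 -2.32, SE 0.26, limma adjusted p = 9.14e-05). These 3 calls held under quantile normalization and under median ratio scaling, where the log2 difference was 0.91 and 0.83 for Ctnnb1, 0.86 and 1.07 for Cdx1, and -3.02 and -2.84 for Gsk3b. Axin2 (log2 -0.76, SE 0.30, limma adjusted p = 0.0539) and Tcf7 (log2 -0.51, SE 0.24, limma adjusted p = 0.0871) missed the threshold on the deposited scale. Both passed it under quantile normalization (-1.52 and -1.03) and under median ratio scaling (-1.13 and -1.14). The remaining 2, Tcf7l1 and Ccnd1, had limma adjusted p = 0.131 and 0.507. With 61.3% of all genes called, 3 of 7 is no more than the background. All 4 replicate 2 values lay above all 4 replicate 1 values for Ctnnb1 and Cdx1, a pattern of 41.9% of the genes tested, and below them for Gsk3b, Tcf7 and Axin2, a pattern of 14.2%.

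The order of levels among the 9 genes changed with the replicate number as well. In replicate 2 the ranges were 26.7 to 60.5 FPKM for Ctnnb1, 13.8 to 16.8 for Tcf7, 5.53 to 12.7 for Tcf7l1 and 2.75 to 8.59 for Cdx1. Ctnnb1 and Tcf7 were each apart from the next gene there, whereas Tcf7l1 and Cdx1 overlapped. Below them Sp5 (0.164 to 2.99 FPKM) overlapped Cdx1, Gsk3b (1.93 to 2.49), Ccnd1 (0.510 to 2.61), Axin2 (0.472 to 1.07) and Lef1 (0.134 to 0.684), while Gsk3b and Axin2 did not overlap. In replicate 1 Tcf7 (18.7 to 25.3 FPKM), Ctnnb1 (10.9 to 22.9) and Gsk3b (11.2 to 23.0) overlapped at the top. Tcf7l1 followed at 5.69 to 6.52 FPKM and Axin2 at 1.90 to 2.86, both apart from their neighbours, and Ccnd1 and Cdx1 overlapped at 0.328 to 1.74, above Lef1 and Sp5 at 0 to 0.306.

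Around the 9 genes, 8 lists of pathway genes (125 symbols, of which 1 had no match) were counted, and 63 of their genes passed the filter. None was called against control in sh, sd or dd cells, beside 0% of all genes. Of the 24 genes in the target gene list 11 passed the filter, and 8 of these 11 had a negative log2 difference in each of the 3 comparisons, where 34.4% of all genes tested were negative for sh, 37.1% for sd and 46.3% for dd. Its median was -0.25 for sh, -0.25 for sd and -0.32 for dd, against 0.15, 0.17 and 0.06 over all genes, and it was also negative after quantile normalization (-0.43, -0.43 and -0.29) and median ratio scaling (-0.35, -0.42 and -0.31). Cdx1, Ccnd1 and Axin2 are among these 8 in all 3 comparisons. Summed FPKM of the 24 target genes was 45.4 in sh, 39.5 in sd and 33.1 in dd, against 57.1 in control, in replicate 2. In replicate 1 that sum was 68.2, 65.9 and 70.6 in the same treated groups, against 68.1 in control, so it fell clearly only in replicate 2. The sums of replicate 2 stood in the same order as the 95th percentiles of the olfactory receptor genes (control highest, then sh, sd and dd). The part of such a shared low-level signal in the target gene values was not tested on any of these scales. The shares over all genes are not matched for level. Markers of other cell types were also lower than control in part: of the 8 primitive endoderm markers 3 were negative for sh (median 0.06), 8 for sd (-0.31) and 6 for dd (-0.54), and both primitive streak markers past the filter were negative in all 3 (medians -0.36, -0.40 and -0.52). Other lists differed: of 3 trophoblast markers past the filter 3 were positive for sh (median 0.33), 2 for sd (0.08) and 1 for dd (-0.13). The 1 neuroectoderm marker past the filter was positive in all 3 (0.50, 0.16 and 0.43). Of 2 feeder markers past the filter 1 was negative for sh, 2 for sd and 2 for dd. Summed FPKM of the 8 primitive endoderm markers was 7.09 in sh, 5.45 in sd and 2.31 in dd, against 13.6 in control, in replicate 2, and 39.2, 25.6 and 32.9 against 27.8 in replicate 1. The part of these cells in the target gene values was not tested. Tnfrsf19, a receptor and target gene, was on the other side in all 3, with 5.11 FPKM in sh, 5.77 in sd and 7.08 in dd against 3.06 in control in replicate 2, and 1.95, 2.15 and 3.81 against 0.461 in replicate 1. The treated libraries were above control in both numbers, and its log2 differences of 0.80, 0.92 and 1.36 (SE 0.77 each) had a limma adjusted p of 1 each.

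**Figure D4:**
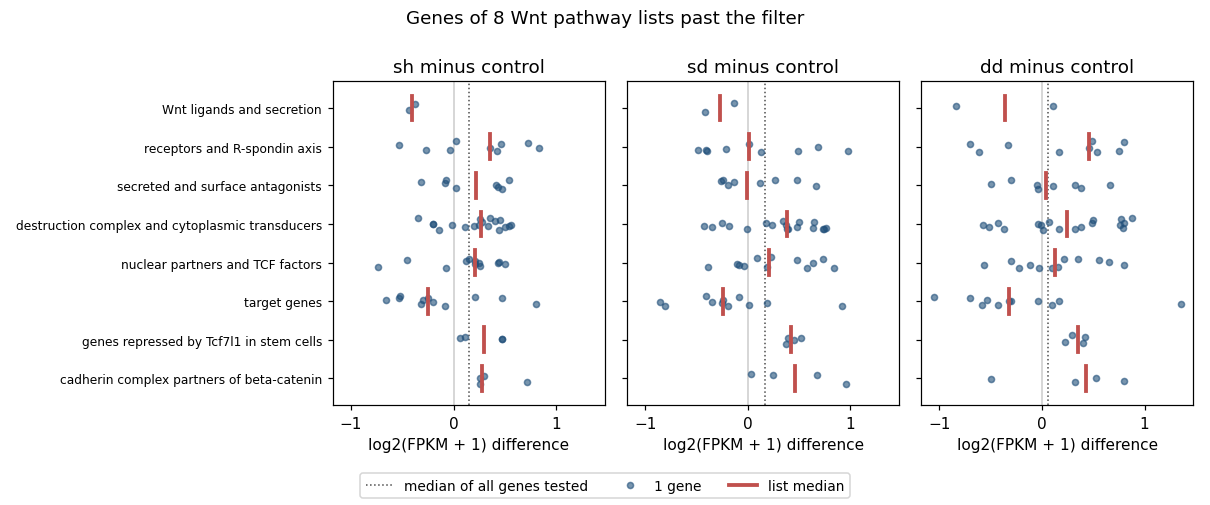
Log2(FPKM + 1) difference from control (x axis) of each listed gene past the filter (points) in 8 Wnt pathway lists (rows) for sh, sd and dd cells, with red bars for list medians and a dotted line for the median of all genes tested. The target gene median lies at -0.25, -0.25 and -0.32, left of the dotted line in all 3 panels.

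In the destruction complex and its transducers 18 of 21 genes passed the filter, with a positive difference in 13 for sh, 13 for sd and 12 for dd and medians of 0.27, 0.38 and 0.24, where 65.5%, 62.9% and 53.6% of all genes were positive. Among genes with a mean of at least 5 FPKM the positive shares were 69.9%, 71.0% and 65.1%, nearer to those of this list. Their medians were 0.19, 0.27 and 0.23. Under quantile normalization the list medians were 0.05, 0.19 and 0.23. Csnk1a1, the kinase that primes beta-catenin for Gsk3, had the smallest unadjusted p of that list and a mean of 38.6 FPKM, with log2 differences of 0.54, 0.75 and 0.78 (SE 0.67 each, limma adjusted p = 1 each). Of the nuclear partners 12 of 17 matched genes passed, with positive differences in 9, 8 and 7 and medians of 0.21, 0.21 and 0.12. Ctbp2, a co-repressor, led them by unadjusted p with 0.25, 0.84 and 0.80 (SE 0.58 each, limma adjusted p = 1 each).

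At the cell surface, Wnt ligand transcripts differed mainly between libraries of different replicate number. In replicate 2 all 19 ligand genes had reads in every library, with a median of 0.674 FPKM in sh, 0.527 in sd and 0.115 in dd, against 1.57 in control. In dd only 13 of the 19 had more than 3 reads, against all 19 in sh, sd and control of that number. In replicate 1 the median was 0, 0.0119 and 0 FPKM in sh, sd and dd, against 0 in control, and 12, 8 and 11 of the 19 had 0 reads there, against 13 in control. The ligand medians of replicate 2 stood in the same order as the 95th percentiles of the olfactory receptor genes given above (control highest, then sh, sd and dd). The part of that shared low-level signal in the ligand values was not tested. Only Wnt6 among the ligands passed the filter, with 1.31 FPKM in sh, 1.22 in sd and 0.246 in dd against 2.87 in control in replicate 2, and 1.30, 1.43 and 1.43 against 1.49 in replicate 1.

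**Figure D5:**
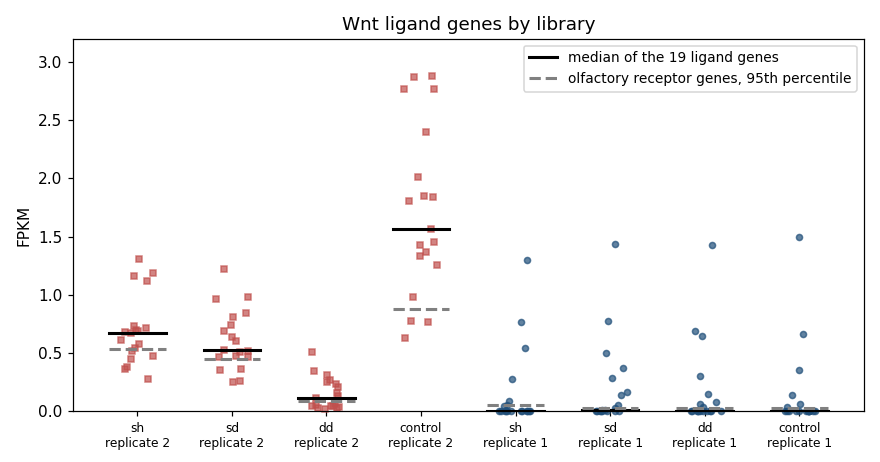
FPKM (y axis) of the 19 Wnt ligand genes by library (x axis), 1 point a gene, with black lines for their median and dashed grey lines for the 95th percentile of the olfactory receptor genes. The median is 0.674, 0.527, 0.115 and 1.57 in sh, sd, dd and control of replicate 2 and at most 0.0119 in replicate 1.

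Of the receptors and the R-spondin axis, 9 of 24 genes passed the filter, with medians of 0.35 for sh, 0.01 for sd and 0.46 for dd against control; the sd median was -0.14 under quantile normalization and -0.11 under median ratio scaling. Lgr4, a receptor for R-spondins that strengthens Wnt signals, showed the largest gap between the numbers of all listed genes. It had 3.55 FPKM in sh, 2.56 in sd and 1.54 in dd, against 2.60 in control, in replicate 2, and 922, 580 and 602 FPKM in the same treated groups, against 1124 in control, in replicate 1. The log2 difference between replicate 2 and replicate 1 was -7.80 (SE 0.24, limma adjusted p = 7.91e-07). No stretch of 31 bases in its transcripts was shared with an annotated transcript of another gene. Introns and unannotated sequence were not searched, so reads misplaced from there were not tested. Over all 8 lists 30 of the 63 genes were called between the numbers, 14 higher and 16 lower in replicate 2, where the background was 46.6% higher and 14.6% lower. The counts were 8 higher and 31 lower of 63 with quantile normalization, where 27.6% of all genes were higher and 29.8% lower, and 7 higher and 26 lower of 62 with median ratio scaling, where 32.9% were higher and 26.0% lower. Besides Lgr4, Tcf7l2 and Gsk3b, the lower genes included Myc, with 0.289 to 2.11 FPKM in replicate 2 against 13.7 to 23.4 in replicate 1 (log2 -3.60, limma adjusted p = 1.88e-05), and Tnks, a tankyrase that turns over Axin (log2 -2.06, limma adjusted p = 0.00024).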

How the data were processed

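Standard Illumina libraries of total RNA from mESCs were sequenced, per the labels' protocols. The authors deposited FPKM per gene and library, per the file headers. CASAVA 1.4, HISAT2 and mm10 are named by the submitters' processing notes. For the counter, its annotation, strand setting and the FPKM denominator, the status is: not given in the sources used here. Of 58420 gene rows, 52338 held values and 52081 matched GENCODE M21 (GRCm38) by identifier. FPKM times union exon length came out whole (within 0.02) in 98.3% to 98.9% of the values below 100 reads, depending on the library, and so gave reads, totals, the 3-read floor and exact conditional 95% intervals of read ratios, which cover counting error only.

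Differences were tested with limma 3.58.1 (R 4.3.3) on log2(FPKM + 1), a scale that understates changes of low genes, over 14561 genes with a mean of at least 1 FPKM. One model held all 4 groups and no covariate, leaving 4 residual degrees of freedom, with a mean-variance trend; replicate 2 minus replicate 1 had the group as a term. P-values are two-sided and Benjamini-Hochberg adjusted over all genes tested, at 0.05. The code was tested on simulated data. The members, the gene lists and the olfactory receptor class were chosen with earlier results of these data known. Beside the 9 members, up to 4 genes of a list with the smallest unadjusted p against control and up to 4 with the highest mean FPKM could be named; Tcf7l2, Tnks, Cdx2 and the marker genes were named after their values were seen. Alternatives were pseudocounts of 0.1 and 0.5, no filter, a filter at 5 FPKM, quantile normalization, median ratio scaling, voom on recovered reads, the replicate number as a block (also with voom), no group term, and each library left out. Promoter sequences are from RefSeq (GRCm38.p6).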

Additional observations from a re-analysis of the deposited data

How the results depend on the processing

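No gene was called between groups under any setting run, the replicate block included, with or without voom. Deviations from the group means of libraries with the same number correlated at 0.75 to 0.89, but 2 numbers do not establish pairing. With the replicate block, Cdx1 in dd against control had a log2 difference of -1.06, no call changed, and 480, 945 and 1310 genes had an unadjusted p under 0.05 for sh, sd and dd. Between replicate numbers, 5368 genes were called at a mean of at least 5 FPKM, where fewer genes (7503) were tested, and 6992 to 8789 with 1 library left out. Directions turned for Tcf7l1 in sh against control under quantile normalization (-0.0099) and median ratio scaling (-0.0024), for Tcf7 in sd under median ratio scaling (-0.011), and under voom for Tcf7l1 (0.044) and Ccnd1 (0.12) in sd. For replicate 2 minus replicate 1 they turned for Ccnd1 under quantile normalization (-0.57) and median ratio scaling (-0.045) and for Tcf7l1 under median ratio scaling (-0.062); the cause was not tested. Axin2 also passed the threshold between numbers under voom (-1.32) and with no group term (-0.76), and Tcf7l1 without dd replicate 1 (0.77, limma adjusted p = 0.0498). Leaving out 1 library sets unequal replicate numbers against each other, and the log2 difference from control then turned sign for several members. For sh it ran between -0.81 and 1.52 for Ctnnb1, -1.75 and 1.06 for Gsk3b, -0.37 and 0.67 for Tcf7l1, -0.66 and 0.26 for Axin2, -1.34 and 0.75 for Cdx1, and -0.77 and 0.28 for Ccnd1. For sd it ran between -1.84 and 0.98 for Gsk3b, -0.40 and 0.32 for Tcf7l1, -0.22 and 0.61 for Tcf7, -0.71 and 0.21 for Axin2, -1.39 and 0.70 for Cdx1, and -0.59 and 0.42 for Ccnd1. For dd it ran between -1.98 and 0.83 for Gsk3b, -0.66 and 0.060 for Tcf7l1, -0.15 and 0.35 for Tcf7, and -0.93 and 0.068 for Axin2, and dd minus sd for Cdx1 between -1.46 and 0.036.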

Other observations

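Beta-catenin also works at cell junctions, where it links E-cadherin to alpha-catenin. Of 6 genes of that complex 4 passed the filter, and Ctnna1, which encodes alpha-catenin, had the highest mean of them, 50.5 FPKM. Its log2 differences from control were 0.71 for sh, 0.68 for sd and 0.80 for dd (SE 0.62 each; limma adjusted p = 1 each). Cdh1, which encodes E-cadherin, had 16.1 to 38.5 FPKM in replicate 2 against 5.17 to 18.6 in replicate 1 (log2 1.59, limma adjusted p = 0.00505), a call lost under median ratio scaling (0.98, limma adjusted p = 0.0521). Ctnnd1 went the other way (log2 -2.48, limma adjusted p = 4.28e-05), also under quantile normalization (-3.21) and median ratio scaling (-2.99). Of the 4 genes 3 were lower in replicate 2 (median -0.35), with 1 called higher and 1 lower, beside 46.6% and 14.6% of all genes tested. All 4 listed genes that Tcf7l1 is known to repress in stem cells, Esrrb, Klf2, Tfcp2l1 and Nanog, passed the filter, and their median difference from control was 0.29 for sh, 0.42 for sd and 0.35 for dd, against 0.15, 0.17 and 0.06 over all genes, with none called. Under median ratio scaling it was 0.13 for sh, with 2 of the 4 negative, 0.22 for sd and 0.31 for dd. Over all genes with a mean of at least 5 FPKM the medians on the deposited scale were 0.19, 0.27 and 0.23, nearer to those of the 4 genes. Summed FPKM of the 4 was 458 in sh, 473 in sd and 499 in dd, against 395 in control, in replicate 2. In replicate 1 the sum was 300, 430 and 374 against 303. Klf2, a pluripotency factor, had 141 to 182 FPKM in replicate 2 against 35.1 to 52.8 in replicate 1 (log2 1.83, limma adjusted p = 0.000109).

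By the root mean square distance over the 6 differences of treated libraries from the control of the same number, among protein-coding genes with a mean of at least 5 FPKM, the genes nearest to Ctnnb1 were Dars (0.12 on the log2 scale), Vps35 (0.13) and Stk17b (0.14). Those nearest to Axin2 were Fbrsl1 (0.11), Pcolce2 (0.13) and Zmat2 (0.15), and those nearest to Tcf7l1 were Dpf2 (0.053), Parvb (0.072) and Prkcsh (0.11). The 6 differences share 2 control libraries, so these distances are a description.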
